A study of Mus musculus with 6 samples.

Results

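Complex I genes are described here as the 46 protein-coding genes whose mouse symbol begins with Nduf, of 56748 genes in the files. All 46 passed the filter on low counts and were among the 18514 genes tested. By role they are 7 core subunits, 9 accessory subunits of the peripheral arm, 9 of the proximal and 10 of the distal membrane arm, the acyl carrier Ndufab1, 8 assembly factors, and the related pair Ndufa4 and Ndufa4l2. RNA came from tibiae of female mice at 12 weeks of age, 3 samples heterozygous for the collagen gene Col1a1 (Col1a1+/-) and 3 wild-type (WT) samples. Col1a1 encodes the main chain of type I collagen, the chief protein of bone matrix, and the series title names the mice as a model of osteogenesis imperfecta type I, an inherited bone fragility. The title also names an anti-TGF-β treatment, but the labels of these 6 samples give no treatment. Bones were flushed of marrow, frozen and crushed whole, and polyadenylated RNA was sequenced. The labels do not state how the allele was made or whether each sample is a separate animal, so p-values measure the spread between these samples only.

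Complex I, or NADH:ubiquinone oxidoreductase, is the entry point of electrons from NADH into the mitochondrial respiratory chain, and it pumps protons across the inner membrane as electrons pass to ubiquinone. Its peripheral arm, in the matrix, holds the flavin and the iron-sulfur clusters, and its membrane arm holds the proton channels, whose core is encoded by mitochondrial DNA. Nuclear genes encode the remaining subunits and the assembly factors, which help to build the complex and are not part of the finished enzyme. Skeletal muscle fibres and other cells with high oxidative demand carry much of it, while bone-forming osteoblasts are known for strong glycolysis.

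Total counts were 26.8 to 32.3 M reads in the Col1a1+/- libraries and 29.3 to 32.4 M in the WT libraries. Col1a1 itself stood at 52880 to 61150 counts-per-million (CPM, scaled between libraries with TMM, a trimmed-mean method) in Col1a1+/- and 36810 to 61350 CPM in WT, with overlap (log2 fold change 0.18, SE 0.31, adjusted p = 0.78), and so did not check the labels. Its ratio to Col1a2, the partner chain gene singled out after values were seen, was 0.775 to 0.836 in Col1a1+/- and 1.25 to 1.32 in WT. The osteocyte gene Dmp1 was detected in every library, at 435.4 to 746 CPM in Col1a1+/- and 224.0 to 589 CPM in WT, and so were skeletal muscle genes, whose shares are given with the comparison they touch. WT replicate 1 stood apart in 10 neutrophil genes, which took 0.103% to 0.171% of counts in Col1a1+/- and 0.615%, 0.146% and 0.151% in WT replicates 1, 2 and 3. Of these genes 10 of 10 lay below 0 with 0 called, and the part of these cells in the results was not tested.

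Nearly all complex I genes had a lower mean level in Col1a1+/- tibia, but none passed the test. With edgeR at a Benjamini-Hochberg adjusted p of 0.05, 0 members were lower and 0 higher, where 2.91% of all tested genes were called lower and 1.43% higher. The log2 fold change lay below 0 for 45 of the 46 members (97.8%), against 50.9% of all tested genes, and above 0 for 1 (all genes 49.1%). Its median was -0.76 (quartiles -0.85 and -0.61), a fold of 0.589, and the median of all tested genes was -0.0074. At an unadjusted p of 0.05, 34 members were lower (73.9%) and 1 higher, against 13.2% and 9.59% of all genes. The smallest adjusted p was 0.0523, and 9 members were under 0.1. DESeq2 called 28 members lower and 1 higher, where it called 7.93% and 4.26% of all genes, and limma-voom called 0 (2.94% of all genes lower). In edgeR with 1 setting changed, members called lower numbered 1 with median-ratio (RLE) size factors (3.01% of all genes), 2 with counts halved (3.7%), 4 with no filter on low counts (2.75%) and 8 with library totals in place of TMM (3.99%); scaling on osteocyte genes and a muscle covariate are given with the cell types. With library totals Ndufa4l2 was called higher, beside 3.18% of all genes, and Ndufb2 and Ndufaf2 changed sign.

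Few members separated the genotypes completely. All 3 Col1a1+/- libraries lay below all 3 WT libraries for 10 members (21.7%), which holds for 14.5% of all tested genes. They lay above for 1 member, against 14% of all genes. WT replicate 1 was the lowest WT library for all 46 members, and WT replicate 3 the highest for 44. Col1a1+/- replicate 3 was the lowest of its genotype for 43 members and replicate 2 the highest for 43. WT replicate 1 lay below Col1a1+/- replicate 2 for 36 members, while WT replicates 2 and 3 both lay above every Col1a1+/- library for 43. Without WT replicate 1, edgeR called 36 members lower, where it called 6.15% of all genes lower, and without Col1a1+/- replicate 2 it called 4, where it called 3.96%. Without any 1 of the other 4 libraries it called 0 members, but those fits called almost no gene at all: 0% of all genes lower without Col1a1+/- replicate 1 or WT replicate 3, 0.0624% without Col1a1+/- replicate 3 and 0.0366% without WT replicate 2.

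**Figure D1:**
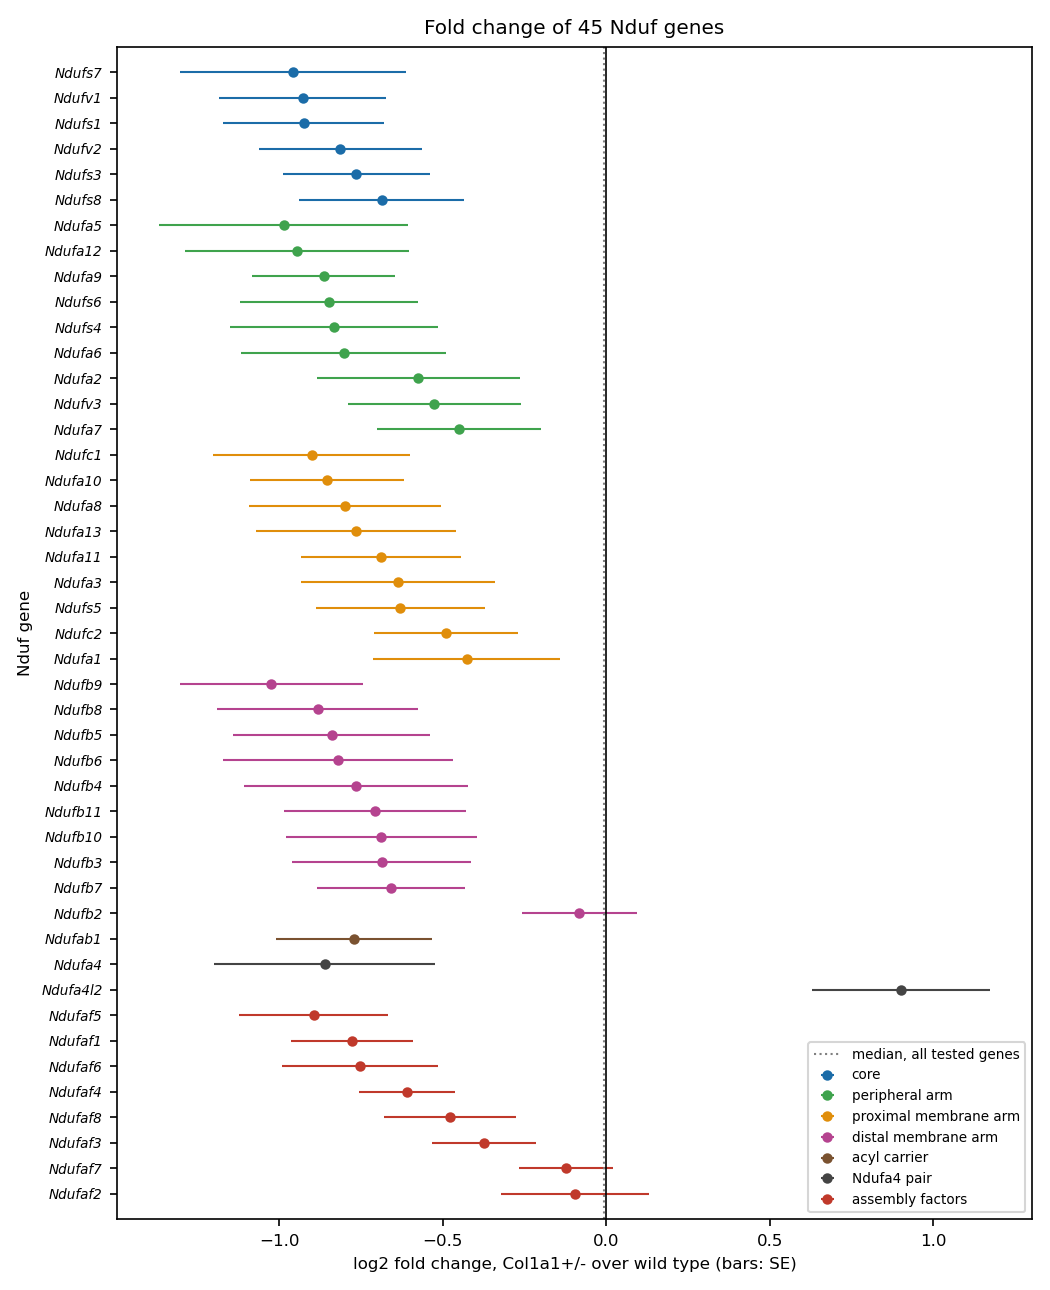
Log2 fold change of 45 of the 46 Nduf genes, Col1a1+/- over wild type, with bars for the SE and colours for the role group. With TMM scaling and no covariate, all genes drawn but Ndufa4l2 lie left of 0, with a median of -0.76, and no member passed an adjusted p of 0.05.

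**Figure D2:**
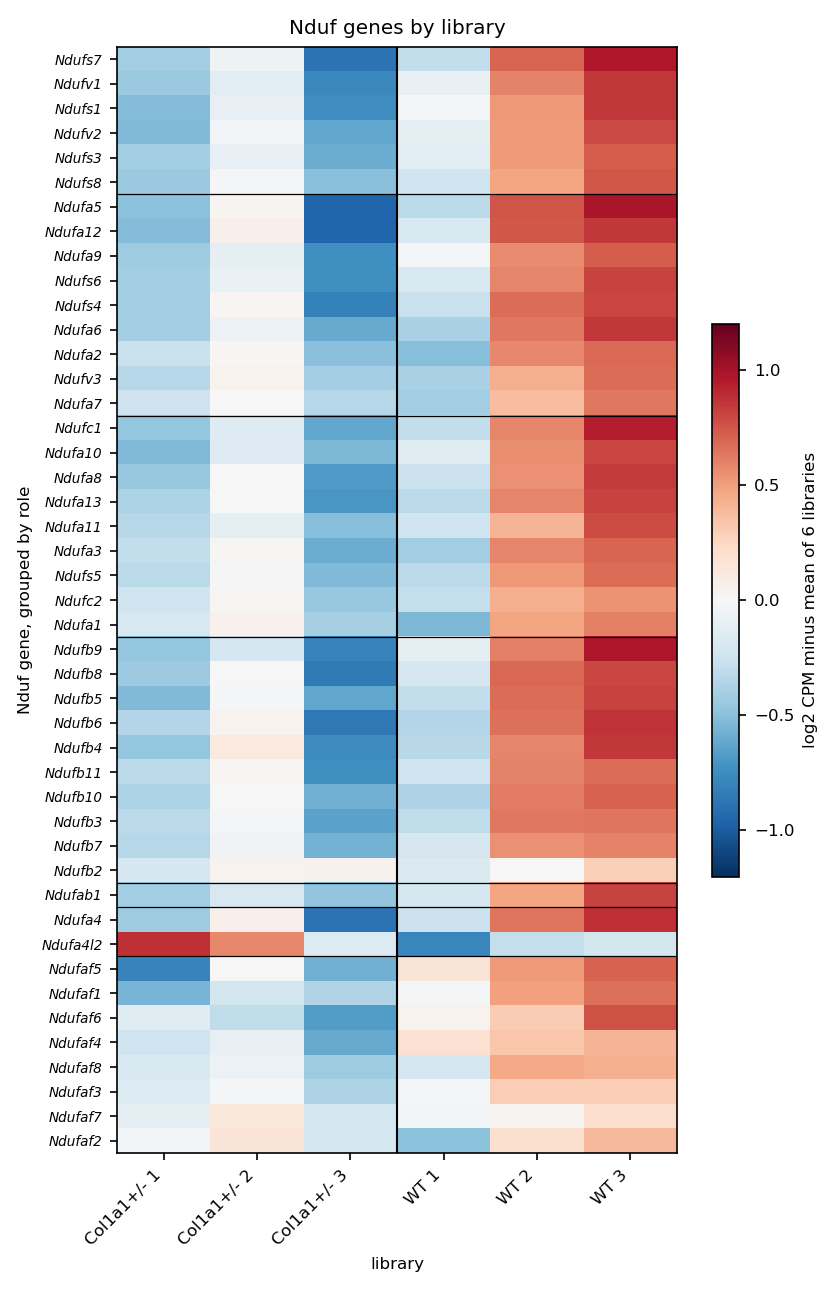
Deviation of 45 of the 46 Nduf genes in each library from the gene's mean over the 6 libraries, on the log2 CPM scale, with Col1a1+/- libraries left of wild-type libraries. Wild-type replicates 2 and 3 are the high libraries for 43 of all 46 genes, and wild-type replicate 1 lies near the Col1a1+/- libraries.

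The 7 core subunits carry out electron transfer, and their median log2 fold change was -0.81, with a range of -0.96 to -0.69. Ndufs1 holds iron-sulfur clusters of the NADH-oxidising module (ENSMUSG00000025968; chromosome 1, 63182755 to 63215992, minus strand, GRCm39). It had, by replicate number, 84.0, 112.5 and 71.6 CPM in the Col1a1+/- tibiae, against 119.3, 172.7 and 217 CPM in the WT tibiae. The groups did not overlap, with WT replicate 1 just above Col1a1+/- replicate 2. The log2 fold change was -0.93 (SE 0.25, adjusted p = 0.0742 by edgeR). Ndufv1, which binds NADH and the flavin, also showed no overlap, at 101.1 to 157 CPM in Col1a1+/- and 162.0 to 310.4 CPM in WT (log2 fold change -0.93, SE 0.26, adjusted p = 0.0811). Ndufs7, which carries the last iron-sulfur cluster before ubiquinone, had the lowest value of the 7, -0.96, but its libraries overlapped and its adjusted p was 0.159. Ndufs3, Ndufs8 and Ndufv2 lay between -0.69 and -0.81, each with WT replicate 1 below Col1a1+/- replicate 2.

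Accessory subunits surround this core and stabilise it. Among the 9 of the peripheral arm the median log2 fold change was -0.83, with a range of -0.99 in Ndufa5 to -0.45 in Ndufa7. Ndufa9, a nucleotide-binding subunit near the junction of the arms (ENSMUSG00000000399; chromosome 6, 126798684 to 126826099, minus strand), had 76.3, 94.1 and 61.5 CPM in Col1a1+/- and 101.5, 151.6 and 169 CPM in WT. It was the peripheral accessory gene whose libraries did not overlap (log2 fold change -0.86, SE 0.22, adjusted p = 0.0637). Ndufs4 and Ndufs6, whose loss in humans causes complex I deficiency, had log2 fold changes of -0.83 and -0.85, with adjusted p of 0.179 and 0.122 and overlapping libraries.

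Among the 9 accessory subunits of the proximal membrane arm the median was -0.69, from -0.90 in Ndufc1 to -0.43 in Ndufa1. Ndufa10, a subunit related to nucleoside kinases (ENSMUSG00000026260; chromosome 1, 92366732 to 92401582, minus strand), had 71.2, 92.2 and 70.5 CPM in Col1a1+/- and 92.9, 151.0 and 179 CPM in WT. Its groups parted by less than 1 CPM, between Col1a1+/- replicate 2 and WT replicate 1, and the log2 fold change was -0.85 (SE 0.24, adjusted p = 0.0815). Ndufa13, first described in humans as the cell death gene GRIM-19, stood at -0.76 with overlap (adjusted p = 0.195), and 30% of its exon length is shared with Tssk6 on the opposite strand.

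Among the 10 accessory subunits of the distal membrane arm the median was -0.74, and it held both ends of the expression range. Ndufb9, which docks an acyl carrier at the tip of the arm (ENSMUSG00000022354; chromosome 15, 58805605 to 58811337, plus strand), had 34.4, 41.2 and 27.2 CPM in Col1a1+/- and 43.9, 72.2 and 93.1 CPM in WT. Its groups did not overlap, and its log2 fold change of -1.02 was the lowest of the 46 (SE 0.28, adjusted p = 0.0819), a fold of 0.492. For Ndufb9, 19.5% of the exon length is shared with Gm49356. Ndufb11, which is X-linked, had the highest level per kb of exon over all libraries, 178 CPM per kb, with 12.9% of that exon length shared with Rbm10 on the opposite strand. It had 121.4, 155.0 and 91.6 CPM in Col1a1+/- and 128.8, 230.0 and 242.3 CPM in WT, with WT replicate 1 inside the Col1a1+/- range (log2 fold change -0.71, SE 0.28, adjusted p = 0.186). Ndufb2 had the lowest level, 1.69 CPM per kb, over an annotated exon length of 5628 bp. Of that length 7.94% is shared with other genes, among them Gm42420 on the same strand. Reads over more than 1 gene are dropped, and how far this lowers the Ndufb2 level was not tested. Ndufb2 had 8.18, 9.71 and 9.75 CPM in Col1a1+/- and 8.34, 9.42 and 11.5 CPM in WT, which overlapped (log2 fold change -0.08, SE 0.18, adjusted p = 0.833). The exon length sums all annotated transcripts, which lowers a level per kb where only the short ones are made.

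Ndufab1, the mitochondrial acyl carrier protein, is present in both arms and also serves mitochondrial fatty acid synthesis. It had 31.4, 36.6 and 30.2 CPM in Col1a1+/- and 36.2, 58.2 and 73.3 CPM in WT. WT replicate 1 lay between Col1a1+/- replicates 1 and 2, so the groups overlapped (log2 fold change -0.77, SE 0.24, adjusted p = 0.106). Outside the protein-coding rule, the row Ndufb1-ps, which RefSeq lists as the subunit gene Ndufb1, had 29.3, 36.7 and 22.0 CPM in Col1a1+/- and 27.5, 50.2 and 51.8 CPM in WT (log2 fold change -0.55, adjusted p = 0.289).

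**Figure D3:**
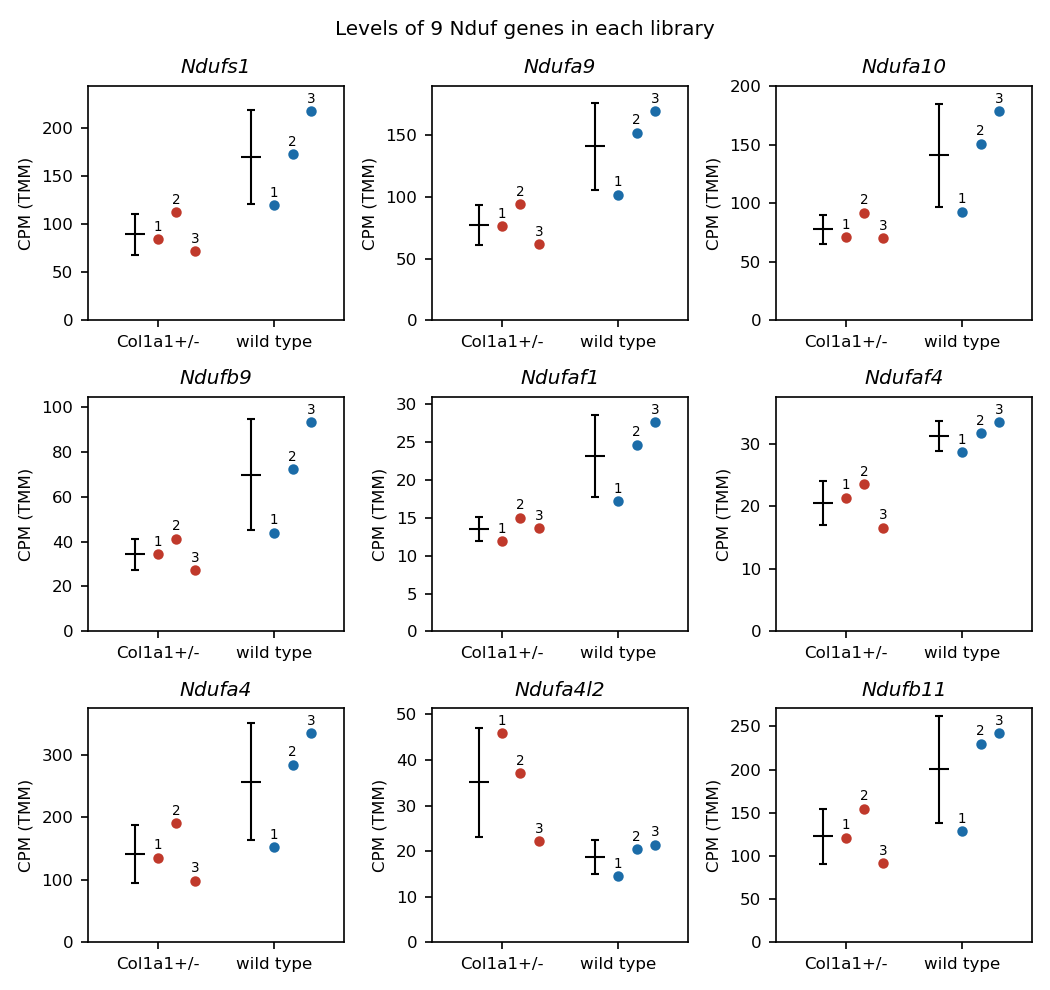
Level in each library, in TMM-scaled CPM, of 9 Nduf genes, with Col1a1+/- left of wild type, points numbered by replicate, and the group mean with its SD (n = 3 each) as the black bar. Ndufaf4 has the tightest wild-type libraries, at 28.7 to 33.5 CPM, and Ndufa4l2 has its lowest Col1a1+/- library, at 22.3 CPM, above its highest wild-type library, at 21.4 CPM.

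The assembly factors held the smallest adjusted p-values and 5 of the 10 members without overlap. Their median log2 fold change was -0.54 over 8 genes. Ndufaf1 (ENSMUSG00000027305; chromosome 2, 119485927 to 119493308, minus strand), which in human cells works with Ecsit and Acad9 to build the membrane arm, had 11.9, 15.0 and 13.6 CPM in Col1a1+/- and 17.2, 24.7 and 27.6 CPM in WT. Every Col1a1+/- library lay below every WT library (log2 fold change -0.78, SE 0.19, adjusted p = 0.0523). Ndufaf4 (ENSMUSG00000028261; chromosome 4, 24898083 to 24905001, plus strand), a partner of Ndufaf3 in human cells and singled out here after values were seen, had 21.4, 23.6 and 16.6 CPM in Col1a1+/- and 28.7, 31.7 and 33.5 CPM in WT. It did not overlap either, and its WT libraries were closer together than those of Ndufaf1 (log2 fold change -0.61, SE 0.15, adjusted p = 0.0523). Both genes were called lower with counts halved, at adjusted p down to 0.0488 in edgeR.

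Ndufaf5, which in human cells modifies an arginine of Ndufs7, stood at 8.51 to 14.9 CPM in Col1a1+/- and 16.5 to 24.3 CPM in WT (log2 fold change -0.90, SE 0.23, adjusted p = 0.061). Ndufaf6 and Ndufaf3 showed no overlap, at -0.75 and -0.37, with adjusted p of 0.103 and 0.201. For Ndufaf3 the groups parted narrowly, between Col1a1+/- replicate 2 at 11.95 CPM and WT replicate 1 at 11.97 CPM. The groups overlapped for Ndufaf8, a partner of Ndufaf5, at -0.48. Ndufaf7, a protein methyltransferase of complex I assembly in human cells, stood at -0.12, and Ndufaf2, a relative of Ndufa12, at -0.10, with adjusted p of 0.668 and 0.851. For Ndufaf2, 65.6% of the exon length is shared with B230220B15Rik, so its reads are uncertain. Among 11 further assembly factors without an Nduf symbol, all 11 lay below 0 and 0 passed in edgeR (6 at an unadjusted p of 0.05, 2 in DESeq2), with a median of -0.42. Of these, Ecsit had the smallest adjusted p, 0.0509, at a log2 fold change of -0.81, followed by Tmem126b at -0.49 (adjusted p = 0.0909) and Tmem70 at -0.51 (adjusted p = 0.13).

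Ndufa4l2 was the member above 0. Ndufa4 was first assigned to complex I and is now counted as a subunit of cytochrome c oxidase, and its relative Ndufa4l2 is known as a gene induced under low oxygen. Ndufa4l2 (ENSMUSG00000040280; chromosome 10, 127350836 to 127353023, plus strand) had 45.9, 37.1 and 22.3 CPM in Col1a1+/- and 14.5, 20.4 and 21.4 CPM in WT. Each Col1a1+/- library lay above each WT library, replicate 3 narrowly so (log2 fold change 0.90, SE 0.27, adjusted p = 0.102). Ndufa4 had 135.4, 190.5 and 98.8 CPM in Col1a1+/- and 152.5, 284.2 and 335 CPM in WT, with overlap (log2 fold change -0.86, SE 0.34, adjusted p = 0.191). The ratio of Ndufa4l2 to Ndufa4, per kb of exon, was 0.428, 0.245 and 0.284 in Col1a1+/- and 0.12, 0.0905 and 0.0807 in WT. This ratio averaged 0.319 ± 0.0964 in Col1a1+/- and 0.0971 ± 0.0205 in WT (SD, n = 3 each), without overlap. DESeq2 called Ndufa4l2 higher (adjusted p = 0.0099), and over the alternatives with edgeR and limma its adjusted p ran up to 0.686.

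Levels of the members differed more than 100-fold per kb, with a median of 51.1 CPM per kb. That span rests on Ndufb2, whose level is uncertain. The next lowest level was 4.05 CPM per kb, in the assembly factor Ndufaf2. This level is uncertain too, as 65.6% of the Ndufaf2 exon length is shared with B230220B15Rik. Most subunits were abundant and assembly factors scarce. The median level per kb was 70.8 for core, 52.8 for peripheral arm, 117 for proximal and 43.3 for distal membrane arm subunits. For assembly factors it was 6.72, and the subunit genes Ndufab1, at 6.44, and Ndufb2, at 1.69, lay below that. The annotated exon length of Ndufab1 is 6883 bp, and in CPM it averaged 32.7 in Col1a1+/- and 55.9 in WT. Ndufaf4, the assembly factor with the highest CPM, averaged 20.5 in Col1a1+/- and 31.3 in WT. Summed counts of assembly factors were 0.035 ± 0.00288 of those of the 36 structural subunits in Col1a1+/- and 0.0306 ± 0.00643 in WT (SD, n = 3 each), with overlap. Counts of members ran from 112 to 15050 per library.

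The core membrane subunits encoded by mitochondrial DNA, mt-Nd1 to mt-Nd6 with mt-Nd4l, also stood below 0, with 0 of 7 called by edgeR (5 at an unadjusted p of 0.05, and 5 lower by DESeq2). Their median log2 fold change was -0.85, and 5 of 7 showed no overlap. The smallest adjusted p was that of mt-Nd5, at 4440, 3917 and 2642 CPM in Col1a1+/- and 5410, 6996 and 7369 CPM in WT, without overlap (log2 fold change -0.85, SE 0.25, adjusted p = 0.0855). It was followed by mt-Nd6 at -0.72 (adjusted p = 0.0972) and mt-Nd2 at -0.95 (adjusted p = 0.113). As mt-Nd6 lies on the strand opposite to mt-Nd5, beside its end, and reads were counted without strand, its reads are uncertain.

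The nuclear genes of the other respiratory complexes lay on the same side. Of 44 nuclear-encoded genes of complexes II to V, 40 lay below 0, 0 passed in edgeR (30 lower at an unadjusted p of 0.05, 22 lower by DESeq2), and the median was -0.79. By complex the medians were -0.77, -0.84, -0.74 and -0.78 for II, III, IV and V. The summed counts of the Nduf genes were 0.456, 0.455 and 0.434 of those of complexes II to V in Col1a1+/- and 0.436, 0.443 and 0.438 in WT. This ratio averaged 0.448 ± 0.0125 in Col1a1+/- and 0.439 ± 0.00367 in WT (SD, n = 3 each), and the groups overlapped. In complex IV the muscle-type subunits, named after values were seen, stood lowest: Cox6a2 at -1.51, Cox7a1 at -1.57 and Cox8b at -1.47 (adjusted p = 0.17, 0.208 and 0.219). Of their counterparts in other tissues, Cox6a1 at 0.31 and Cox8a at 0.22 lay above 0 (adjusted p = 0.301 and 0.383), whereas Cox7a2 at -0.57 and its relative Cox7a2l at -0.21 lay below 0 (adjusted p = 0.15 and 0.48).

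Regulators of mitochondrial biogenesis included called genes. Of 10 such genes 3 fell in Col1a1+/-: Ppargc1a, the coactivator of mitochondrial gene expression, Perm1, a muscle regulator that acts with it, and Esrra, its nuclear receptor partner. Ppargc1a had 4.08, 4.30 and 2.47 CPM in Col1a1+/- and 9.64, 9.20 and 14.0 CPM in WT, without overlap (log2 fold change -1.60, SE 0.26, adjusted p = 0.0244). Perm1 stood at -1.52 (adjusted p = 0.0336) and Esrra at -0.73 (adjusted p = 0.0378). The calls were lost without any 1 of Col1a1+/- replicates 1 and 3 and WT replicates 2 and 3, when 0 of the 10 were called. Those fits called almost no gene at all, so the loss is not particular to this list. With the replicate number as a block, 0 of the 10 were called, beside 0.481% of all genes lower. With the muscle covariate 0 of the 10 were called, beside 0% of all genes lower. The transcription factors Nrf1 and Gabpa stood at 0.11 and -0.05 (adjusted p = 0.63 and 0.821). Of 10 genes marking mitochondrial content 1 fell, the citrate synthase gene Cs, at -0.89 (adjusted p = 0.0416), and the median was -0.44. Leaving out any 1 of the same 4 libraries ended this call too.

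**Figure D4:**
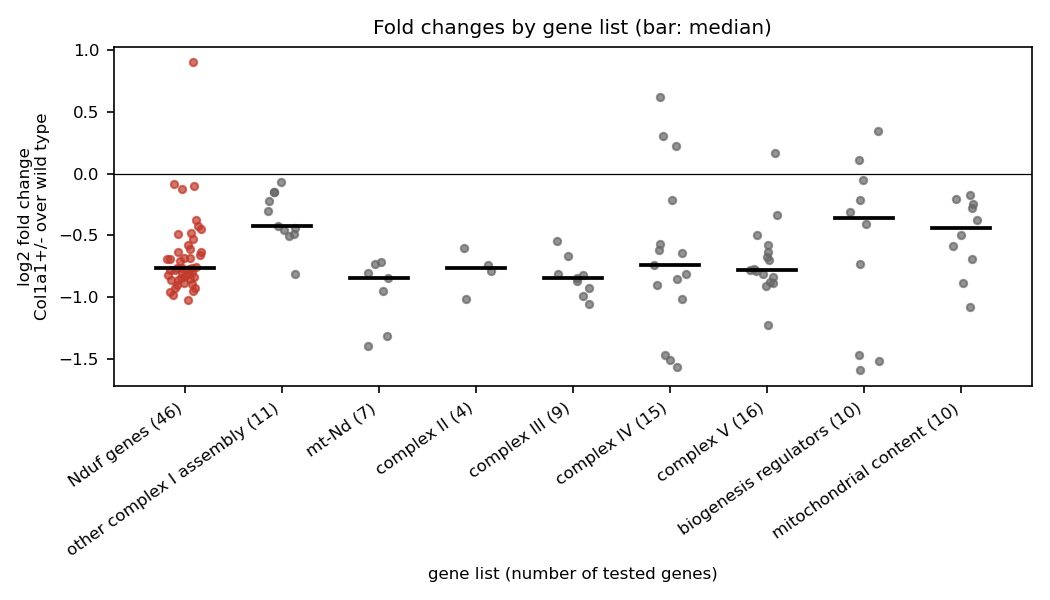
Log2 fold change, Col1a1+/- over wild type, of each Nduf gene (red) and of the genes in 8 other mitochondrial lists (grey), with a black bar at the median of each. The Nduf genes (median -0.76), the mt-Nd genes (-0.85) and complexes II to V (-0.84 to -0.74) lie lower than the other assembly factors (-0.42), biogenesis regulators (-0.36) and content genes (-0.44), a difference that was not tested.

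Skeletal muscle RNA moved with the same libraries. In bulk tissue, fewer cells of a type and less RNA per cell cannot be told apart. The 24 skeletal muscle genes took 1.89%, 3.48% and 1.71% of counts in Col1a1+/- and 5.45%, 5.59% and 7% in WT, without overlap, and 24 of 24 lay below 0, 8 of them called lower. Their median log2 fold change was -1.70, and 17 were called without Col1a1+/- replicate 2, 4 without WT replicate 1 and 0 without any 1 of the other 4 libraries. The fits without 1 of those 4 libraries called almost no gene at all. The Nduf genes took 0.305%, 0.378% and 0.258% in Col1a1+/- and 0.36%, 0.528% and 0.584% in WT, which overlapped at 1 library, WT replicate 1. The order of the libraries in the 2 shares was alike within each genotype. As a ratio to muscle gene counts, the Nduf sum was 0.161, 0.109 and 0.15 in Col1a1+/- and 0.066, 0.0944 and 0.0834 in WT, higher in each Col1a1+/- library.

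With the mean log2 CPM of the muscle genes as a covariate, 44 of 46 log2 fold changes lay above 0, with a median of 0.41. In that fit edgeR called 0 members, beside 0 genes lower and 1 higher (0.0054%) of all 18514, and the members' smallest adjusted p was 0.686. Ndufaf1 at -0.19 and Ndufaf4 at -0.04 were the members that stayed below 0. The muscle score was 6.38 to 8.14 in Col1a1+/- and 9.05 to 10.3 in WT, without overlap, so that genotype and muscle RNA cannot be told apart. Osteoblast genes took 8.12% to 9.11% of counts in Col1a1+/- and 3.74% to 5.37% in WT, with 10 of 10 above 0 and 5 called higher. Chondrocyte genes took 0.604% to 0.792% in Col1a1+/- and 0.273% to 0.365% in WT, again 10 of 10 above 0 and 5 called. Without 1 library, 0 to 6 osteoblast and 0 to 5 chondrocyte genes were called, with 0 in both lists without Col1a1+/- replicate 1 or WT replicate 3. Osteoclast genes took 0.773% to 0.979% in Col1a1+/- and 0.529% to 0.641% in WT, and erythroid genes 0.313% to 0.35% in Col1a1+/- and 0.205% to 0.368% in WT, with 0 called in either list. Osteocyte genes, 9 of 9 tested above 0 and 0 called, took 0.0937% to 0.149% in Col1a1+/- and 0.0593% to 0.1% in WT. Adipocyte genes took 0.0271% to 0.0346% in Col1a1+/- and 0.0313% to 0.0443% in WT, with Ucp1 at 0 in every library and 1 of 8 tested genes, Plin4, called lower (log2 fold change -1.15, adjusted p = 0.0238, no overlap). This call was lost without any 1 of Col1a1+/- replicates 1 and 3 and WT replicates 2 and 3, where almost no gene at all was called. The part of these cells in the Nduf values was not tested. Scaled on 10 osteocyte genes in place of TMM, 26 members were called lower, where 7.27% of all genes were, and the median was -1.26, beside a median of -0.58 for all tested genes.

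**Figure D5:**
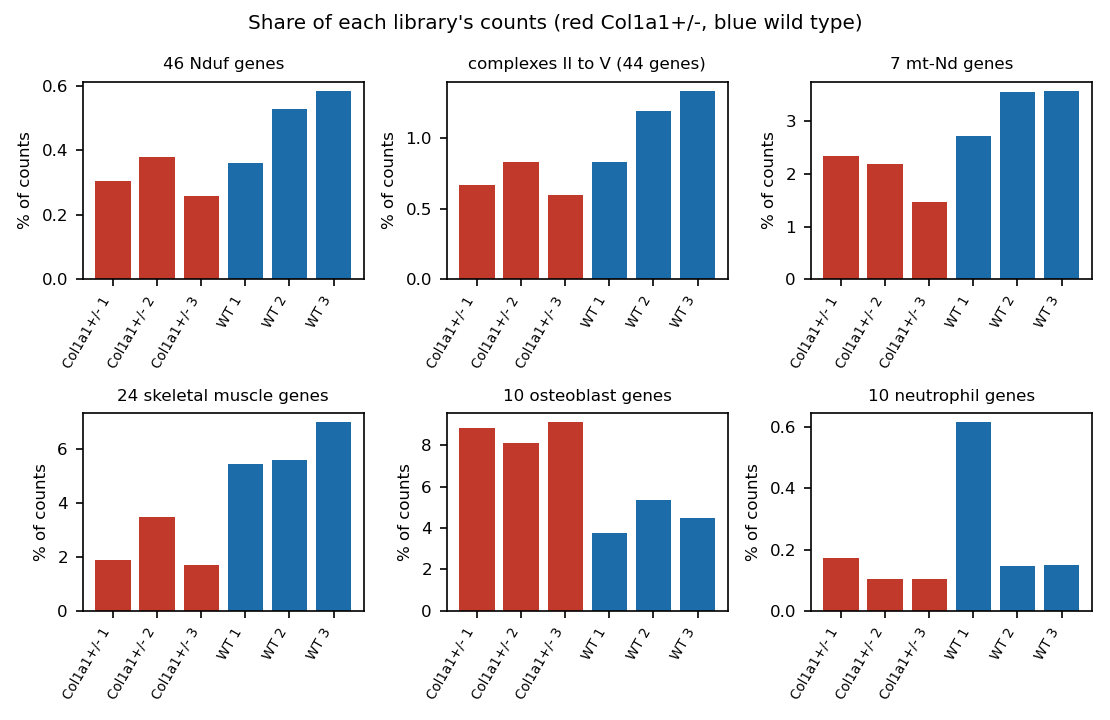
Share of each library's counts taken by the Nduf genes and by other gene lists, in percent, with Col1a1+/- libraries left of wild-type libraries. The muscle genes take 1.71% to 3.48% in Col1a1+/- and 5.45% to 7% in wild type, and the Nduf genes take 0.258% to 0.378% in Col1a1+/- and 0.36% to 0.584% in wild type.

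Promoter sequence was read for the members from the RefSeq table of build GRCm38.p6, which gave a window from 250 bases before to 50 after the start for 40 of the 46 members. The members without a window include Ndufa2, Ndufa4l2, Ndufaf6, Ndufb9 and Ndufs1. Windows were searched on both strands for the letters of 4 motifs named for nuclear regulators of respiratory genes. Ndufaf1 and Ndufaf4 are shown because they had the smallest adjusted p, and Ndufa11 and Ndufs3 as a further member with each of the same motifs. Each line gives the 120 bases before the start, 5′ to 3′ on the gene's strand, with matches in capitals (GCATGCGC of NRF1 in Ndufaf4 and Ndufa11, CCGGAAG of the ETS family, which includes the factor GABP, in Ndufaf1 and Ndufs3). Overlapping matches on the 2 strands run together.
Ndufaf1, chr2:119662835-119662954, minus strand: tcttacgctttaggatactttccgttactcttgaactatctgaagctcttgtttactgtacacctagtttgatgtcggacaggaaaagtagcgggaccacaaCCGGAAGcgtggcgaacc
Ndufaf4, chr4:24897963-24898082, plus strand: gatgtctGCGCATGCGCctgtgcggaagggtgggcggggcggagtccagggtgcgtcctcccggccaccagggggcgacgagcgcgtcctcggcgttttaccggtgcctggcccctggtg
Ndufa11, chr17:56717642-56717761, plus strand: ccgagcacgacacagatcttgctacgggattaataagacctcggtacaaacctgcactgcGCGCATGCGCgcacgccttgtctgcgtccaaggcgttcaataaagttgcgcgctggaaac
Ndufs3, chr2:90904722-90904841, minus strand: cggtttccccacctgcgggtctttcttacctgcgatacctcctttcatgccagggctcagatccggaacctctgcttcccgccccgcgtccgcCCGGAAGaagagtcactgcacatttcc

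The letters GCATGCGC stood in 5 of 40 members (12.5%), against 3.94% of 17492 protein-coding genes with a window. The letters CCGGAAG stood in 6 members (15%), against 12.9%, and AAGGTCA, the site of estrogen-related receptors such as Esrra, in 3 members (7.5%), against 4.73%. AAGATGGC, the letters of a YY1 site, stood in 8 members (20%), against 3.57%. Of 34 genes of complexes II to V with a window, 20.6% held GCATGCGC and 35.3% CCGGAAG, both above the share of the members. Of the same 34 genes, 17.6% held AAGGTCA, also above the members, and 8.82% AAGATGGC, below the members. No match overlapped that of another motif, although GCATGCGC can overlap itself on the opposite strand. A match describes these letters and not a bound site.

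All 8 YY1 matches lay on the gene's strand, 10 to 38 bases after the start, and are shown with up to 8 bases on each side, the match in capitals.
Ndufa3, chr7:3617387-3617410, plus strand: ccaagaacAAGATGGCcgggagta
Ndufa9, chr6:126849100-126849123, minus strand: tgtgggagAAGATGGCggccgccg
Ndufaf8, chr11:120098936-120098959, plus strand: cagggcccAAGATGGCggcgccct
Ndufb8, chr19:44555393-44555412, minus strand: agaaggtgAAGATGGCtgcc
Ndufc1, chr3:51408918-51408941, minus strand: tgcggaacAAGATGGCgccgtccg
Ndufs4, chr13:114388045-114388067, minus strand: cctacaggAAGATGGCggcggtc
Ndufs6, chr13:73328434-73328457, minus strand: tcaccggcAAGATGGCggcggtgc
Ndufs7, chr10:80249465-80249488, plus strand: ccgaggccAAGATGGCggcgctgg

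The log2 fold changes of the 8 genes with these letters ran from -0.96 in Ndufs7 to -0.48 in Ndufaf8, and of the 8, Ndufa9 was the gene whose libraries did not overlap.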

How the data were processed

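Each library's deposited table gives unnormalized read counts by gene, made by featureCounts 2.0.3 over exons of Ensembl annotation 107 (GRCm39), per the file headers. The submitters' processing notes name Trimmomatic 0.39, HISAT2 2.2.1 and SAMtools 1.20. The recorded command counts each mate as 1 read, sets no strand and drops multi-mapping reads and those over more than 1 gene, so antisense and near-identical copies are uncertain. For 7 members, other genes overlap more than 10% of the exon length.

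Symbols and gene types came from an earlier-build annotation by gene identifier (52073 of 56748 named, 91.8%), and 5 Nduf rows not protein-coding there were left out. The genotype test was that of edgeR 4.0.16 under R 4.3.3 (filterByExpr, TMM factors of 0.892 to 1.1, robust quasi-likelihood F test, Benjamini-Hochberg adjusted p under 0.05 over all tested genes, two-sided). CPM are TMM-scaled, and an SE is the absolute log2 fold change over the square root of F. Alternatives used DESeq2 1.42.0 and limma 3.58.1. The fit was also run on counts simulated for each gene independently, which lack shifts shared by many genes of a library. Replicates of a genotype varied 26.2 to 90.3 times more than read sampling gives, so no file repeats another of its genotype.

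The members and lists were chosen with earlier results of these data known. Values per library are given for the member with the smallest p of each role group, the highest and lowest level per kb and any member opposite in sign to the median. Of other lists up to 3 genes with the smallest p are named. Values of 1 member are not reported here by name, though it is in the counts and medians.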

Additional observations from a re-analysis of the deposited data

How the results depend on the processing

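The number of members called lower was 0, and moved to 1 with RLE size factors, 2 with counts halved, 4 with no filter on low counts, 8 scaled by library totals, 26 scaled on osteocyte genes and 28 in DESeq2. Leaving out 1 library gave 0 to 36. Members called higher numbered 0, and 1 (Ndufa4l2) with library totals and in DESeq2. Over all genes 803 were called, and 2256 in DESeq2, 1472 with no filter, 1352 scaled on osteocyte genes, 1327 with library totals, 126 with the replicate block and 1 with the muscle covariate, and 0 to 1766 without 1 library. The members' median of -0.76 became -1.26 scaled on osteocyte genes and 0.41 with the muscle covariate, and ran from -0.95 to -0.55 without 1 library. With the replicate block the median was -0.73 and 0 members were called, beside 0.481% of all genes lower. Same-numbered libraries correlated at 0.107, 0.041 and -0.122 in their deviations, and the numbers are not stated to pair animals.

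With library totals Ndufb2 (0.0132) and Ndufaf2 (0.012) turned positive, and without 1 library they ran from -0.15 to 0.0531 and from -0.28 to 0.0886. With the muscle covariate 43 members turned positive, among them Ndufs1 0.23, Ndufs3 0.23, Ndufs7 0.57, Ndufs8 0.39, Ndufv1 0.24, Ndufv2 0.32, Ndufa12 0.58, Ndufa2 0.63, Ndufa5 0.71, Ndufa6 0.46, Ndufa7 0.52, Ndufa9 0.15, Ndufs4 0.56, Ndufs6 0.38, Ndufv3 0.56, Ndufa1 0.68, Ndufa10 0.11, Ndufa11 0.35, Ndufa13 0.58, Ndufa3 0.59, Ndufa8 0.52, Ndufc1 0.33, Ndufc2 0.44, Ndufs5 0.44, Ndufb10 0.51, Ndufb11 0.52, Ndufb2 0.25, Ndufb3 0.43, Ndufb4 0.78, Ndufb5 0.40, Ndufb6 0.73, Ndufb7 0.30, Ndufb8 0.49, Ndufb9 0.23, Ndufab1 0.15, Ndufa4 0.70, Ndufaf2 0.79, Ndufaf3 0.12, Ndufaf5 0.0348, Ndufaf6 0.0498, Ndufaf7 0.35, Ndufaf8 0.21. The muscle score did not overlap between genotypes, so this fit cannot separate them; the cause of the other shifts was not tested.

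With 3 libraries in each group, the number of calls changed as single libraries were left out. WT replicate 1 lay apart from the other WT replicates, and 36 members were called lower without it. Fits without Col1a1+/- replicate 1 or 3, or WT replicate 2 or 3, called 0 members and almost no gene at all. The labels record no batch.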
